A study of Mus musculus with 12 samples.

Results

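The genes described here are 10 genes of transforming growth factor beta (TGF-beta) signalling: the ligands Tgfb1, Tgfb2 and Tgfb3, the receptors Tgfbr1, Tgfbr2 and Tgfbr3, the latent TGF-beta binding proteins Ltbp1, Ltbp2 and Ltbp3, and Tgfbi, a secreted matrix protein named for its induction by TGF-beta. They were chosen by name, as the Ensembl identifiers that the GENCODE annotation of the GRCm38 build gives these symbols. All 10 were found among the 55487 genes listed and all 10 were among the 14175 genes that passed the filter on low counts. The data came from C2C12 cells, an immortalized mouse myoblast line that fuses into multinucleated myotubes when serum is lowered. Both groups were grown close to confluence and differentiated for 5 days in medium with 2% horse serum. The medium was then changed for 24 h either to 4% horse serum (control, libraries 1 to 6) or to 4% STEM (libraries 7 to 12), a solution of proteins released by human embryonic stem cells taken partway through differentiation, without the cells, in which a TGF-beta protein is among the factors listed by the study. STEM took the place of horse serum, so the addition of STEM and the removal of horse serum cannot be told apart, and nothing in the labels says that the 6 libraries of a group came from separately started cultures, so that p-values measure the spread between these libraries only.

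TGF-beta ligands leave the cell in a latent form, held by their own propeptide, which is often linked to a latent TGF-beta binding protein that anchors it in the matrix. Once released, the ligand binds the type II receptor Tgfbr2, which activates the type I receptor Tgfbr1, which in turn phosphorylates Smad2 and Smad3. Tgfbr3 (betaglycan) is a co-receptor that presents ligand to the others. In skeletal muscle this pathway is known for restraining myoblast differentiation and for driving matrix production.

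Totals of counts assigned to genes ran from 13285472 to 18254882 in the 6 horse serum libraries and from 14909485 to 24536264 in the 6 STEM libraries. Horse serum library 6 stood apart from the other 11 on the second principal component (-53.3 against 0.216 to 11.8). On the first, which held 44.2% of the variance, library 6 lay at 11.2, nearer to the STEM libraries (15.5 to 28.6) than to the other horse serum libraries (-35.5 to -24.6). Counts of calls, and the fold changes of most of the 10 genes, are therefore also given without library 6. Fold changes of the other genes named below come from all libraries. All 10 myotube markers examined were lowest among the horse serum libraries in library 6, with a summed level of 11990 CPM (counts scaled to library totals adjusted by TMM, edgeR's trimmed mean normalization) against 17638 to 20022 in the other horse serum libraries and 16005 to 21573 with STEM. The summed level of 5 myoblast and cycling cell markers was 578 to 832 CPM in horse serum and 463 to 522 CPM with STEM, and 3 of the 5 were lower with STEM. The summed level of 5 fibroblast and fibro-adipogenic markers was 110 to 148 CPM in horse serum and 79.6 to 90.0 CPM with STEM. Of the 4 tested, 1 was called higher and 2 lower. Over all tested genes, 18.9% were called higher and 17.4% lower. Markers of macrophages, endothelial cells and adipocytes summed to at most 6.0, 1.0 and 0.274 CPM, with Adgre1, Kdr and Plin1 at 0. The part of any of these in the results below was not tested, and in bulk RNA fewer cells of a type and less RNA per cell cannot be told apart.

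Expression of all 3 ligands was higher with STEM compared to horse serum, as was that of Tgfbi, whereas the type I receptor Tgfbr1 was lower. Of the 10 genes, 4 were called higher and 1 lower by edgeR's quasi-likelihood test at an adjusted p of 0.05 or less, where 18.9% of all tested genes were called higher, 17.4% lower and 36.4% in either direction. The libraries of the groups did not overlap for 3 of the 10 (Tgfb2, Tgfb3 and Tgfbr1), as for 17.2% of all tested genes. The median log2 fold change of the 10 genes was 0.25, against 0.012 over all tested genes. The 10 genes were chosen with earlier results of these data known, so their shares and median are not independent of the data. Without horse serum library 6, 5 of the 10 were called higher and 1 lower, and 50.8% of tested genes were called.

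**Figure D1:**
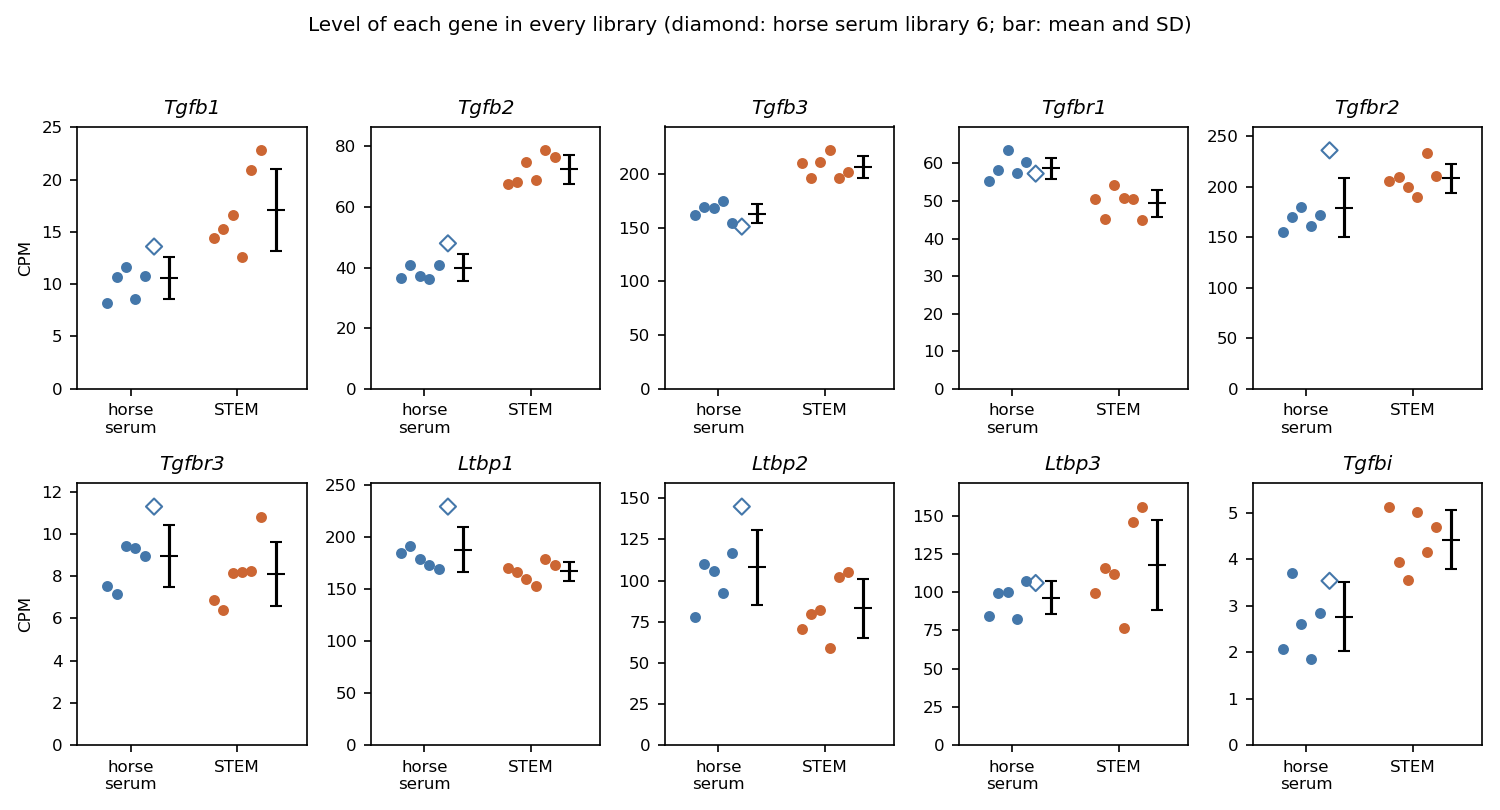
Level of each of the 10 genes in CPM (vertical axes, each from 0) in the 6 horse serum and 6 STEM libraries, 1 point a library, with the mean and SD of each group beside the points and horse serum library 6 as an open diamond. The points of Tgfb2, Tgfb3 and Tgfbr1 do not overlap between groups, and library 6 is the highest horse serum library for Tgfb1, Tgfb2, Tgfbr2, Tgfbr3, Ltbp1 and Ltbp2.

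Among the ligands, Tgfb2 (chromosome 1, 186622792 to 186705989, minus strand, GRCm38) differed most. Its level ran from 36.1 CPM through a median of 39.1 to 48.0 CPM in horse serum and from 67.6 through 71.8 to 78.7 CPM with STEM, so every STEM library lay above every horse serum library. The mean rose from 40.0 ± 4.44 to 72.5 ± 4.79 CPM (SD, n = 6 each), a log2 fold change of 0.86 (standard error 0.070, edgeR adjusted p = 5.59e-07). Library 6 was the highest of the horse serum group, and without it the log2 fold change was 0.92.

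Tgfb1 (chromosome 7, 25687002 to 25705077, plus strand) was expressed at a lower level and spread more between libraries. Its level ran from 8.16 CPM through a median of 10.7 to 13.6 CPM in horse serum and from 12.6 through 15.9 to 22.8 CPM with STEM. The lowest STEM library (library 10) lay below horse serum library 6, and the other 5 STEM libraries lay above all 6 horse serum libraries. The mean rose from 10.6 ± 1.99 to 17.1 ± 3.97 CPM (SD, n = 6 each), a log2 fold change of 0.69 (standard error 0.16, edgeR adjusted p = 0.0033), which rested on 119 to 353 counts a library. Without library 6 the groups no longer overlapped and the log2 fold change was 0.78 (edgeR adjusted p = 0.00116).

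Tgfb3 (chromosome 12, 86056745 to 86079041, minus strand) was the most abundant ligand transcript and rose by the smallest factor. Its level ran from 151 CPM through a median of 165 to 175 CPM in horse serum and from 196 through 206 to 222 CPM with STEM, with no overlap. The mean rose from 163 ± 9.24 to 206 ± 10.4 CPM (SD, n = 6 each), a log2 fold change of 0.34 (standard error 0.048, edgeR adjusted p = 8.93e-05), and library 6 was here the lowest horse serum library. The GENCODE gene Ttll5 on the other strand covers the same stretch without sharing exons and was also higher with STEM (log2 fold change 0.50, edgeR adjusted p = 1.43e-05). Whether the counting used strand is not given in the sources used here, so reads from unspliced Ttll5 RNA over Tgfb3 exons could not be told apart from Tgfb3 reads.

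Levels of different genes were compared per kilobase, as CPM divided by the summed length of a gene's annotated exons in kilobases. On this scale Tgfb3 made up 84.2% of the summed level of the 3 ligand transcripts in horse serum and 79.3% with STEM. Tgfb2 made up 12.1% and 16.3%, and Tgfb1 3.67% and 4.42%. The summed ligand level was 57.2 ± 2.05 CPM per kilobase in horse serum, between 54.7 and 59.6, and 76.9 ± 2.56 with STEM, between 72.8 and 80.2 (SD, n = 6 each), so the groups did not overlap. The ratio of Tgfb2 to Tgfb3, computed after the values had been seen and therefore given without a test, was 0.121 to 0.186 in horse serum libraries and 0.181 to 0.235 in STEM libraries, with overlap only between horse serum library 6 and STEM library 10.

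The promoter set used held no entry for Tgfb3 or Tgfbr3, so their start regions were not searched. The start regions of Tgfb1 and Tgfb2 are printed because these ligands rose by the larger factors and their promoters are built differently. Each sequence is the 250 bases before the start site, read from RefSeq's GRCm38.p6 in the direction of the gene, at chr7:25686752-25687001 (plus strand) for Tgfb1 and chr1:186705990-186706239 (minus strand) for Tgfb2. Capitals mark matches, on either strand, to 1 of 7 short motifs searched for: CAGAC (the Smad box), TGACTCA (AP-1), TGACGTCA (the cyclic AMP response element), GGGCGG (the GC box), TATAAA (the TATA box), CCAAT and CACGTG (an E-box).
Tgfb1: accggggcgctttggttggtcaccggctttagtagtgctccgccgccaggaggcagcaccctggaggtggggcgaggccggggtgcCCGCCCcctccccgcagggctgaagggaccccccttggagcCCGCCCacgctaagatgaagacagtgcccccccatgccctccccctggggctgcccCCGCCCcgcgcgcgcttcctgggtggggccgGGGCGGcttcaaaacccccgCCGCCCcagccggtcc
Tgfb2: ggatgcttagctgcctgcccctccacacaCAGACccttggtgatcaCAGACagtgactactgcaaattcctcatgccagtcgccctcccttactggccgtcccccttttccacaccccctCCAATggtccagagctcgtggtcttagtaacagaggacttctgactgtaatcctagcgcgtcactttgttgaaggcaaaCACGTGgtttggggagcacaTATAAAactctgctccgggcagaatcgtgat
The Tgfb1 sequence held the GC box 5 times and none of the other 6 motifs. The Tgfb2 sequence held the Smad box 2 times and the TATA box, the CCAAT box and the E-box 1 time each, with the TATA box close to the start site, and no GC box. Over 32851 promoter windows of the same length, 42.2% held a Smad box, 32.7% a GC box, 33.8% a CCAAT box, 12.4% a TATA box, 6.02% the E-box, 4.46% the AP-1 letters and 1.55% the cyclic AMP response element. These matches are a description of the letters in the windows.

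Of the receptors, Tgfbr1 was lower with STEM, while Tgfbr2 and Tgfbr3 were not called. Tgfbr1 (chromosome 4, 47353222 to 47414931, plus strand), the type I receptor kinase, ran from 55.4 CPM through a median of 57.9 to 63.5 CPM in horse serum and from 44.9 through 50.6 to 54.2 CPM with STEM. Every STEM library lay below every horse serum library, with a narrow gap between the closest pair. The mean fell from 58.7 ± 2.83 to 49.4 ± 3.68 CPM (SD, n = 6 each), a log2 fold change of -0.25 (standard error 0.055, edgeR adjusted p = 0.00251), and of -0.26 without library 6.

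Tgfbr2 (chromosome 9, 116084293 to 116175360, minus strand), the ligand-binding type II receptor, ran from 155 CPM through a median of 171 to 236 CPM in horse serum and from 190 through 208 to 233 CPM with STEM. The single horse serum value within or above the STEM range was the 236 CPM of library 6, the highest of all 12, and the other 5 horse serum libraries reached at most 180 CPM. Over all libraries the means were 179 ± 29.2 and 208 ± 14.4 CPM (SD, n = 6 each), a log2 fold change of 0.22 (standard error 0.088) that did not pass the test (edgeR adjusted p = 0.0661). Without library 6 the log2 fold change was 0.31 (standard error 0.049, edgeR adjusted p = 2.72e-05) and passed it. The call on Tgfbr2 thus depended on library 6, in which the myotube markers were lowest.

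Tgfbr3 (chromosome 5, 107106570 to 107289629, minus strand), the co-receptor betaglycan, was low in both groups. It ran from 7.18 CPM through a median of 9.13 to 11.3 CPM in horse serum and from 6.42 through 8.18 to 10.8 CPM with STEM, so that the ranges almost coincided. The log2 fold change was -0.15 (standard error 0.13, edgeR adjusted p = 0.4), and of -0.077 without library 6. Counts of 93 to 220 a library stood behind these values.

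Per kilobase, Tgfbr2 made up 67.6% of the summed level of the 3 receptor transcripts in horse serum and 74.3% with STEM, and Tgfbr1 made up 28.2% and 22.1%. The ratio of Tgfbr2 to Tgfbr1, again computed after the values had been seen and given without a test, was 2.23 to 2.33 in horse serum libraries 1 to 5, 3.29 in library 6 and 2.94 to 3.76 with STEM. Library 6 thus lay among the STEM libraries in this ratio. The 250 bases before the Tgfbr1 start site nearest to its GENCODE start (chr4:47352972-47353221, plus strand, RefSeq GRCm38.p6) are printed because it was the 1 gene of the 10 called lower, with the same motifs in capitals.
Tgfbr1: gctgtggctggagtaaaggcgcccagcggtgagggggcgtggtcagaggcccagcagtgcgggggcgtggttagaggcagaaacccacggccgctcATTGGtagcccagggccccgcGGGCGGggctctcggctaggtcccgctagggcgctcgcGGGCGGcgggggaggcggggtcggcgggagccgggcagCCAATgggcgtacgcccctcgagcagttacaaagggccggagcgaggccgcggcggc
This window held the GC box 2 times and the CCAAT box 2 times, and no Smad box. A further RefSeq start site of Tgfbr1, at position 47386216, held the Smad box 1 time and none of the other 6 motifs.

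The 3 latent TGF-beta binding proteins, large matrix glycoproteins of the fibrillin family, were not called in either direction. Ltbp1 (chromosome 17, 75005568 to 75392512, plus strand) ran from 169 CPM through a median of 182 to 229 CPM in horse serum and from 153 through 168 to 179 CPM with STEM. The ranges overlapped, and the 229 CPM of library 6 lay above the 191 CPM of the next horse serum library. The log2 fold change was -0.17 (standard error 0.068, edgeR adjusted p = 0.0631), and -0.10 without library 6 (edgeR adjusted p = 0.0558).

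Ltbp2 (chromosome 12, 84783212 to 84876532, minus strand), a member of the family that is not thought to bind latent TGF-beta itself, ran from 77.9 CPM through a median of 108 to 145 CPM in horse serum and from 58.9 through 80.9 to 105 CPM with STEM. Means of 108 ± 22.9 and 83.1 ± 17.9 CPM (SD, n = 6 each) gave a log2 fold change of -0.38 (standard error 0.16, edgeR adjusted p = 0.0855). The log2 fold change of Ltbp2 without library 6 was -0.28 (edgeR adjusted p = 0.19). Ltbp3 (chromosome 19, 5740904 to 5758532, plus strand) ran the other way, from 82.5 CPM through a median of 99.7 to 107 CPM in horse serum and from 76.3 through 114 to 156 CPM with STEM. Its STEM libraries spanned the whole horse serum range and beyond on both sides, and the log2 fold change of 0.28 (standard error 0.15) did not pass the test (edgeR adjusted p = 0.157). Exons of Ltbp2 and of its antisense gene D030025P21Rik share 764 bases, and the latter had 5 to 29 counts a library.

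Tgfb1, Ltbp2 and Ltbp3 varied together between libraries of the same group. In horse serum, libraries 1 and 4 were the lowest pair for each of the 3 genes, as they were for Tgfb2, Tgfbr2 and Tgfbi. With STEM, library 10 was the lowest for each (log2 CPM minus the group mean of -0.41, -0.47 and -0.58) and library 12 the highest (0.45, 0.37 and 0.44), and library 10 was also the lowest for Tgfbr2 and Ltbp1. Not all members shared this order. Tgfb3 was highest of its group in library 4 (0.10) and in library 10 (0.11), and Tgfbi lay above its group mean in library 10 (0.19). The difference in log2 level between the most GC-rich and the most AT-rich genes was 0.0014 in library 1 and -0.0275 in library 4, the highest pair of the horse serum group, whose other libraries lay between -0.122 and -0.0318. With STEM it was 0.0703 in library 10 and 0.0328 in library 12, within a range of 0.0266 in library 7 to 0.135 in library 9. The groups did not overlap in this difference, which was higher with STEM. With GC content offsets per library, a setting chosen after the data had been seen, the log2 fold changes were 0.66 for Tgfb1, -0.44 for Ltbp2 and 0.23 for Ltbp3. What set the shared order was not tested.

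The ratio of Ltbp3 to Ltbp2 was 0.821 ± 0.10 per kilobase in horse serum, between 0.657 and 0.975, and 1.27 ± 0.063 with STEM, between 1.17 and 1.34 (SD, n = 6 each). No STEM library overlapped a horse serum library. The ratio of Tgfb1 to Ltbp3 was 0.174 to 0.231 in horse serum and 0.237 to 0.297 with STEM, also without overlap, though the closest libraries lay near each other. Both ratios were picked after the values had been seen, so they are given without a test.

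**Figure D2:**
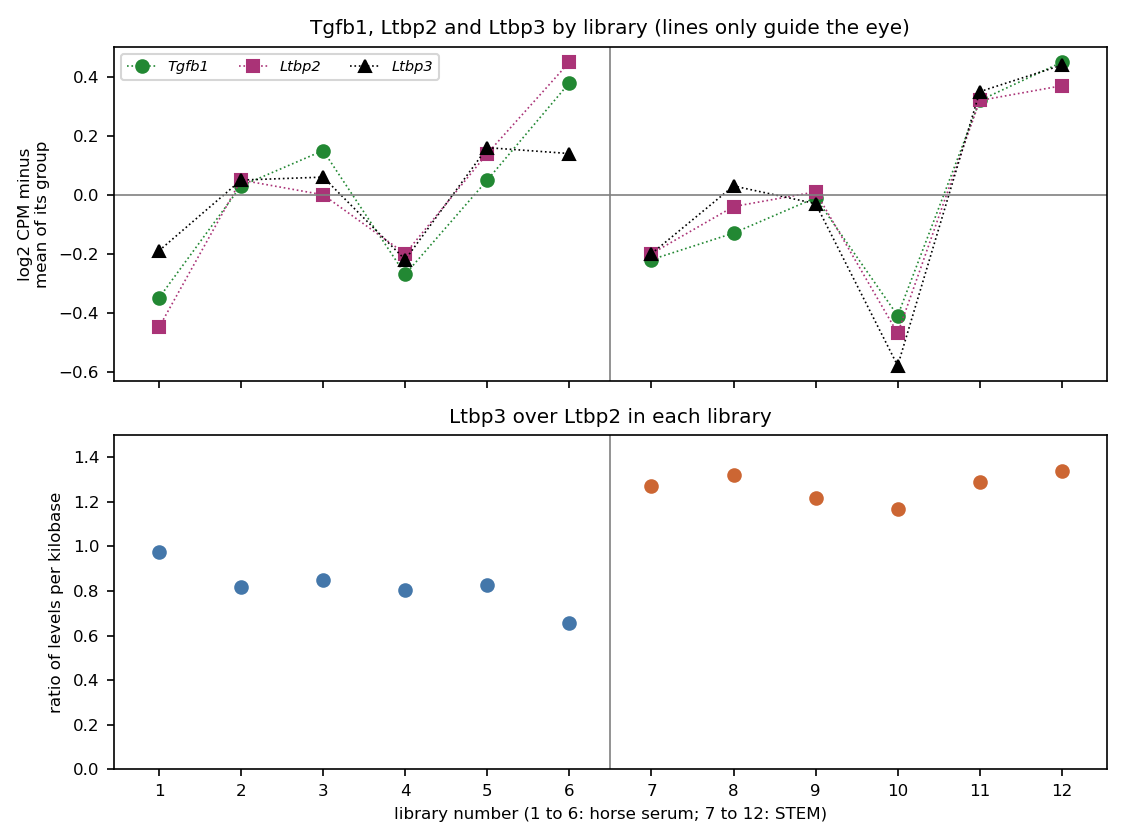
Upper panel, log2 CPM of Tgfb1, Ltbp2 and Ltbp3 minus the mean of the library's group (vertical axis) in libraries 1 to 12 (horizontal axis); lower panel, ratio of the level per kilobase of Ltbp3 to that of Ltbp2 in the same libraries. The 3 genes share their low libraries (1 and 4 in horse serum, 10 with STEM), and the ratio lies between 0.657 and 0.975 in horse serum and between 1.17 and 1.34 with STEM.

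Tgfbi (chromosome 13, 56609523 to 56639562, plus strand), which codes for a secreted protein that binds collagens and integrins, was the least abundant of the 10. It ran from 1.86 CPM through a median of 2.72 to 3.70 CPM in horse serum and from 3.55 through 4.44 to 5.14 CPM with STEM, on 29 to 126 counts a library. The groups overlapped by the narrow stretch between the lowest STEM library and horse serum library 2. The mean rose from 2.77 ± 0.751 to 4.42 ± 0.636 CPM (SD, n = 6 each), a log2 fold change of 0.68 (standard error 0.17, edgeR adjusted p = 0.00589), and of 0.77 without library 6. The 187 bases upstream of its GENCODE start (chr13:56609336-56609522, plus strand, RefSeq GRCm38.p6) are shown as the start region of the gene that bears the pathway's name as a target.
Tgfbi: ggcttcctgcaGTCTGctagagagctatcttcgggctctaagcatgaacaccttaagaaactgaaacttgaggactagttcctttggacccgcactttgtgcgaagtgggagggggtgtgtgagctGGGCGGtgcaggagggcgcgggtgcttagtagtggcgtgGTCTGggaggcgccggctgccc
These bases held the Smad box 2 times and the GC box 1 time. Of the other genes with an entry, and counting for each the start site nearest to its GENCODE start, the Smad box matched 2 times at Ltbp2 and 1 time each at Tgfbr2, Ltbp1 and Ltbp3, and the cyclic AMP response element 1 time at Ltbp1. A further RefSeq start site of Ltbp1, at position 75178781, held the Smad box 2 times and no cyclic AMP response element.

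**Figure D3:**
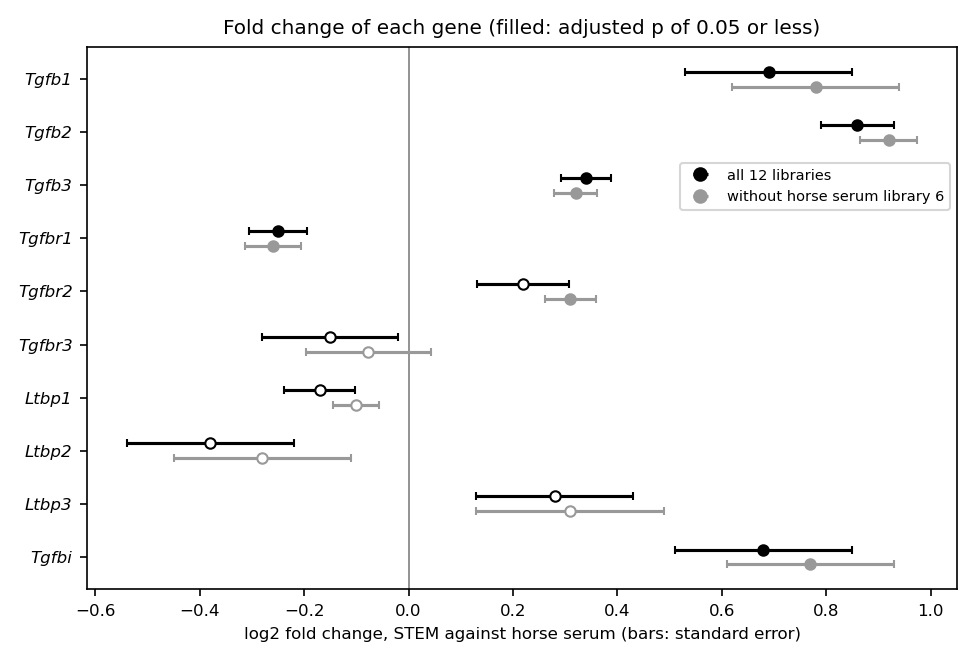
Log2 fold change of each gene, STEM against horse serum (horizontal axis), with its standard error, from all 12 libraries (black) and without horse serum library 6 (grey); filled points passed the test. Tgfb1, Tgfb2, Tgfb3 and Tgfbi lie to the right and Tgfbr1 to the left with either set, and Tgfbr2 passed the test only without library 6, moving from 0.22 to 0.31.

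The exact two-sided permutation test on the CPM of 1 gene at a time, which cannot go below p = 0.00216 with 6 libraries a group, gave that smallest value for Tgfb2, Tgfb3 and Tgfbr1. For Tgfb1 and Tgfbi it gave exact p = 0.00433. Exact p-values of 0.026 for Ltbp1, 0.0584 for Tgfbr2, 0.0606 for Ltbp2, 0.145 for Ltbp3 and 0.353 for Tgfbr3 followed. These 10 values were not adjusted, and the calls rest on the edgeR fit over all tested genes.

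In the order of levels per kilobase, Tgfb3 (48.2 ± 2.73 in horse serum) stood first and Tgfbi (0.734 ± 0.199) last. Tgfbr2 (21.9 ± 3.57), Ltbp1 (17.5 ± 2.04), Ltbp2 (13.2 ± 2.79), Ltbp3 (10.6 ± 1.17) and Tgfbr1 (8.99 ± 0.433) came between, each overlapping its neighbour in this order over the 6 libraries. Tgfb2 (6.91 ± 0.766) lay below all of these without overlap, Tgfb1 followed at 2.09 ± 0.394, and Tgfb1 and Tgfbr3 (1.37 ± 0.226) overlapped. With STEM, Tgfb2 rose to 12.5 ± 0.826 and overlapped Ltbp3 (13.0 ± 3.24) and Ltbp2 (10.2 ± 2.18), and Tgfbi (1.17 ± 0.169) overlapped Tgfbr3 (1.24 ± 0.236). The annotated exons of Tgfb1 sum to 5042 bases, while its longest transcript has 2573, and with the latter length its horse serum level was 4.10 ± 0.773.

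**Figure D4:**
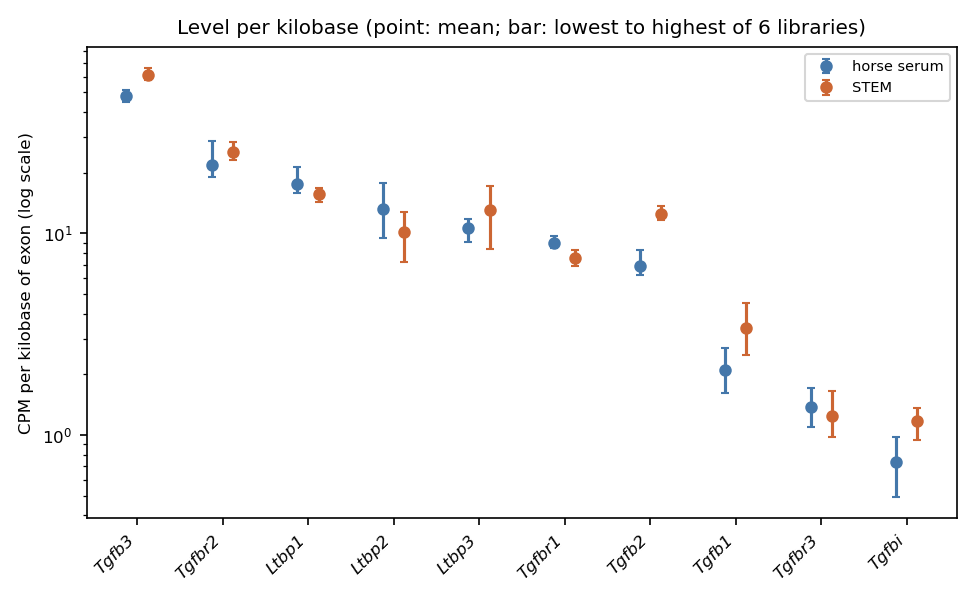
Level of each gene in CPM per kilobase of exon (vertical axis, log scale) in horse serum (blue) and STEM (orange), as the mean with bars from the lowest to the highest of 6 libraries, ordered by the horse serum mean. Tgfb3 lies above all others in both groups (48.2 and 61.0), and Tgfb2 moves from below Tgfbr1 in horse serum to above it with STEM (6.91 to 12.5).

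By the root mean square difference over the 12 libraries of log2 CPM minus the gene's own mean, the tested genes with profiles nearest to that of Tgfb2 were Pkp1 (0.088), Adamts12 (0.091), Man2b2 (0.097), Rps6ka2 (0.101) and Emilin1 (0.101). Emilin1, a microfibril glycoprotein known to hold back processing of the TGF-beta precursor, is also in the list of latency genes below. Nearest to Tgfbr1 were Dstyk (0.062), Mgme1 (0.063), Erlin2 (0.063), Wdr35 (0.065) and Vamp3 (0.070).

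Of 21 further genes listed for latency and activation of the ligand, 18 were tested. With STEM, 7 were called higher and 3 lower, together 55.6% of those tested, beside 36.4% of all tested genes. Their median log2 fold change was 0.22. This list and those that follow were chosen with earlier results of these data known, so their shares are not independent of the data. Fmod, which codes for the small proteoglycan fibromodulin that can bind TGF-beta, lay between 3.55 and 7.53 CPM in horse serum and between 18.4 and 27.6 CPM with STEM (log2 fold change 2.14, edgeR adjusted p = 1.01e-06). Lrrc32 (GARP), a membrane protein that docks latent TGF-beta at the cell surface, rose from 1.99 ± 1.04 to 5.91 ± 1.05 CPM (SD, n = 6 each; log2 fold change 1.53, edgeR adjusted p = 0.000311), on 17 to 127 counts a library. For both genes, every STEM library lay above every horse serum library.

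Emilin1 rose from 19.4 ± 1.83 to 32.2 ± 2.24 CPM (log2 fold change 0.73, edgeR adjusted p = 2.55e-06) and the proteoglycan gene Bgn from 446 ± 48.9 to 613 ± 78.1 CPM (0.46, edgeR adjusted p = 0.000798). The other 3 that rose, named to complete the count and so after their values had been seen, were Fbn1, the microfibril protein to which latent binding proteins attach (0.78), Furin, the protease that cleaves the ligand precursor (0.60), and the integrin subunit Itgb6 (0.43). The 3 that fell were the gelatinase gene Mmp2 (-0.18, edgeR adjusted p = 0.00614), the integrin subunit Itgb1 (-0.17, edgeR adjusted p = 0.0247) and Asph, a hydroxylase of EGF-like domains (-0.41, edgeR adjusted p = 0.0273). Without library 6, 8 were called higher and 4 lower, together 66.7%, beside 50.8% of all tested genes. Nrros, Mmp9 and Fbn2 were too low to be tested.

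Of 29 Smads and modulators of the receptors, all tested, 9 were called higher and 3 lower, together 41.4%, close to the 36.4% of all tested genes, with a median log2 fold change of 0.039. The signal-carrying Smads themselves were not called, with log2 fold changes of -0.10 for Smad2, -0.011 for Smad3 and -0.043 for Smad4. Pmepa1 and Ldlrad4, related membrane proteins that hold Smads away from the receptor and are themselves known TGF-beta targets, rose from 135 ± 45.1 to 251 ± 29.0 CPM (0.89, edgeR adjusted p = 0.00214) and from 24.6 ± 3.56 to 33.5 ± 2.37 CPM (0.44, edgeR adjusted p = 0.00105). Smad7, the inhibitory Smad that is also a classical target, was at 14.8 ± 2.31 and 15.2 ± 1.34 CPM (log2 fold change 0.039, standard error 0.099, edgeR adjusted p = 0.787). Skil, a Smad co-repressor, rose by 0.18 (edgeR adjusted p = 0.0187).

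Usp11, a deubiquitinase of the type I receptor, rose from 39.6 ± 2.83 to 52.0 ± 2.77 CPM without overlap (0.39, edgeR adjusted p = 9.41e-05), and Fkbp1a, which binds the type I receptor and keeps it inactive, rose by 0.29 (edgeR adjusted p = 0.00488). Dab2, an endocytic adaptor that links receptors to Smads, fell from 23.3 ± 1.23 to 13.6 ± 1.69 CPM (-0.77, edgeR adjusted p = 5.7e-06) and the inhibitory co-receptor Cd109 from 60.0 ± 3.48 to 46.0 ± 1.84 CPM (-0.38, edgeR adjusted p = 3.29e-05), both without overlap. Tab1, a partner of the kinase Map3k7, fell by 0.14 on the log2 scale (edgeR adjusted p = 0.0416). Without library 6, 12 of the list were called higher and 4 lower, together 55.2%, beside 50.8% of all tested genes.

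Of 45 genes commonly read as TGF-beta responses, 44 were tested, 19 were called higher and 12 lower, together 70.5%, beside 36.4% of all tested genes (18.9% higher and 17.4% lower), with a median log2 fold change of 0.13. The list includes Myc, Id1, Id2 and Id3, which TGF-beta commonly lowers, so these counts are not sorted by the direction expected of each gene. Id1 (0.63) and Id3 (0.72) were called higher, Id2 (-0.28) was called lower, and Myc (0.12) was not called. Genes in use as readouts of the same pathway thus lay on both sides. Among those that rose were Gadd45b (0.57, edgeR adjusted p = 1.92e-07), the calponin gene Cnn1 (0.91, edgeR adjusted p = 4.38e-07), the small GTPase gene Rhob (0.64, edgeR adjusted p = 1.01e-05) and the early transcription factor gene Klf10 (0.61, edgeR adjusted p = 1.49e-05), none with overlapping groups. The smooth muscle actin gene Acta2 rose from 1934 ± 200 to 2452 ± 201 CPM (0.34, edgeR adjusted p = 0.00184) and Tagln from 354 ± 41.7 to 450 ± 16.1 CPM (0.35, edgeR adjusted p = 0.00114).

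Ccn2, a matricellular protein gene formerly called Ctgf, fell from 101 ± 15.6 to 57.0 ± 12.3 CPM (SD, n = 6 each; log2 fold change -0.82, edgeR adjusted p = 0.000912) and its relative Ccn1 from 136 ± 13.7 to 105 ± 6.36 CPM (-0.37, edgeR adjusted p = 0.000531). Sphk1, a sphingosine kinase gene, fell by 0.85 (edgeR adjusted p = 6.13e-07), and Hmga2, a chromatin protein gene, by 1.83 on the log2 scale (edgeR adjusted p = 0.000387), at 3.66 ± 1.79 CPM in horse serum. Without library 6, 21 of the list were called higher and 14 lower, together 79.5%, beside 50.8% of all tested genes. Cdkn2b was at 0 in all libraries.

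Of 12 other receptors and co-receptors of the superfamily, 9 were tested, 2 were called higher and 2 lower, together 44.4%, which at 4 of 9 genes is near the 36.4% of all tested genes, with a median log2 fold change of 0.024. Bmpr1b, a type I receptor for bone morphogenetic proteins, rose from 8.81 ± 1.23 to 14.6 ± 1.74 CPM (0.73, edgeR adjusted p = 0.000107). Acvrl1, a type I receptor best known from endothelium, fell from 3.64 ± 1.21 to 1.20 ± 0.249 CPM (-1.59, edgeR adjusted p = 0.00012), on 14 to 76 counts a library, and the activin receptor gene Acvr2b by 0.63 (edgeR adjusted p = 0.0212). Bmpr2, at 0.36 (edgeR adjusted p = 0.0496), passed the threshold narrowly. Without library 6, 3 were called higher and 3 lower, together 66.7%, beside 50.8% of all tested genes.

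**Figure D5:**
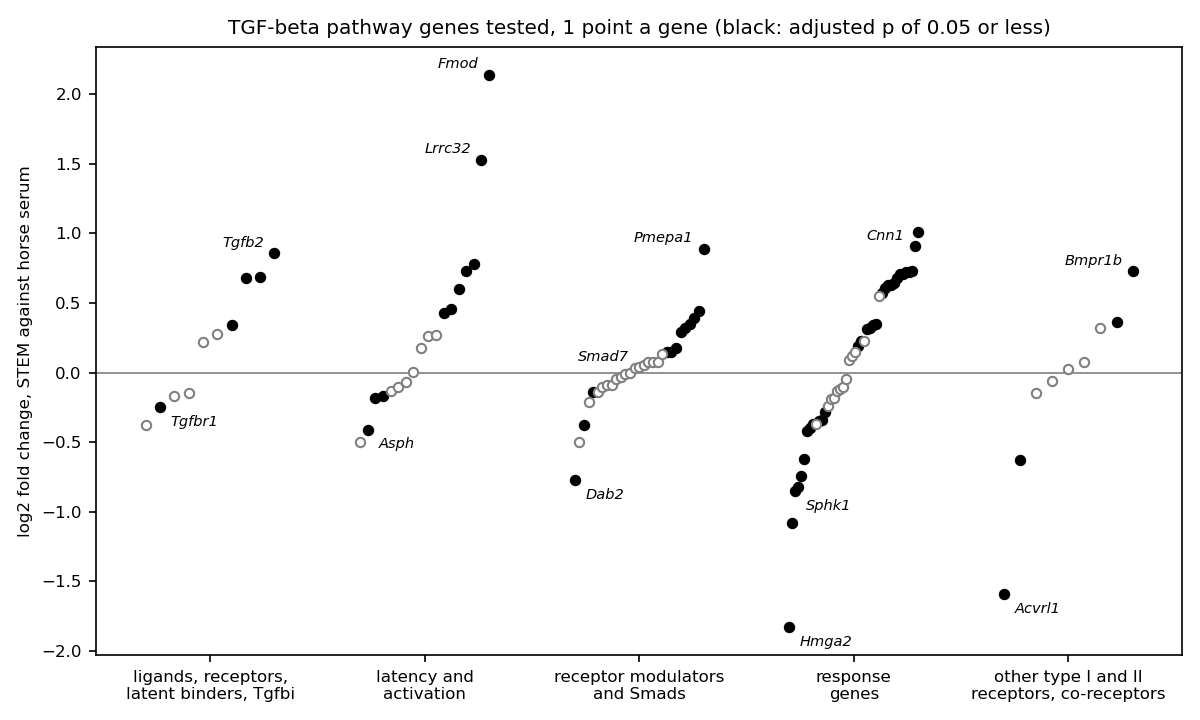
Log2 fold change, STEM against horse serum (vertical axis), of every tested gene of the 10 and of the 4 further lists (horizontal axis), 1 point a gene in order of its value; black points passed the test and open points did not. Each list holds black points on both sides of 0, from 2.14 for Fmod to -1.83 for Hmga2.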

How the data were processed

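Total RNA of 12 samples of C2C12 myotubes was sequenced and the authors deposited 1 table of whole-number counts per Ensembl gene, raw and not normalized. The submitters' processing notes name STAR 2.7.3a, featureCounts 1.6.3 and DESeq2 1.26.0 and the build GRCm38. The strand setting, the annotation release used for counting and the filters are not given in the sources used here. The library numbers of the labels (horse serum 1 to 6, STEM 7 to 12) matched the columns, and no column belonged to no sample.

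Gene symbols, positions and exon lengths came from GENCODE release M21 (GRCm38), which held 55227 of the 55487 identifiers. Counts were scaled by TMM and tested with edgeR 4.0.16 (R 4.3.3; filterByExpr, robust quasi-likelihood fit, group as the only term), with p-values adjusted over the 14175 genes left (Benjamini-Hochberg) and calls at an adjusted p of 0.05 or less. CPM are TMM-scaled; log2 CPM used a prior count of 2. DESeq2 1.42.0, limma-voom (limma 3.58.1), other scalings, other filters, a threshold of 0.01 and leaving out each library were alternatives. GC content offsets and ratios within libraries were chosen after the data had been seen. The fits were tested on simulated data with known changes. Python 3.11.15 was used for the exact permutation tests and the promoter search.

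Replicate pairs within a group differed by 3.29 to 68.5 times the chi-square expected from counting noise per gene, so no library was a repeat of another. The depth of 13285472 to 24536264 counts sets the counting error, which adds to the spread between libraries.

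The 10 genes and the pathway and marker lists were chosen with earlier results of these data known. Of each list, the genes named are the at most 4 that rose and the at most 4 that fell with the lowest p-values, with Smad7, Skil, Pmepa1, Ldlrad4, Ccn2, Acta2 and Tagln named in any case, and for the called genes with the largest rise and the largest fall the 5 nearest profiles. Smad2, Smad3, Smad4, Fbn1, Furin, Itgb6, Myc, Id1, Id2, Id3 and genes too low to test were named outside this rule, after their values had been seen. Items that the rule also names and that are withheld are not reported here.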

Additional observations from a re-analysis of the deposited data

Results flagged for a closer look

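Tgfbr2 in horse serum library 6, at 236 CPM, stood far above the nearest of the other horse serum libraries (180 CPM). The gap made up 0.701 of the range of the group, above the limit that Dixon's test sets for 6 values. Ltbp1 in the same library, at 229 CPM, stood above the nearest of the others (191 CPM) by 0.642 of the range. These were 2 of 20 groups of values examined (10 genes in each of 2 groups), and chance marks about 1 in 20 groups.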

How the results depend on the processing

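Of 210 values of the log2 fold changes of the 10 genes under 21 alternatives, 199 kept direction and side of the threshold, 11 newly passed it and 0 reversed. Tgfb1, Tgfb2, Tgfb3, Tgfbr1 and Tgfbi passed it under each. Tgfbr2 passed it without horse serum library 6, at 0.31, its leave-one-out range being 0.18 to 0.31. Ltbp1 passed it with upper quartile scaling (-0.19), at least 10 counts in every library (-0.18), no filter on low counts (-0.18) and GC content offsets (-0.20), with a leave-one-out range of -0.20 (without horse serum library 5) to -0.10. Ltbp2 passed it with DESeq2 (-0.39) and GC content offsets (-0.44), with a leave-one-out range of -0.46 (without horse serum library 1 or STEM library 12, both called) to -0.28, and Ltbp3 without STEM library 10 (0.38, lowest 0.19). The number of the 10 called lower, 1, was accordingly 2 with upper quartile scaling, no filter, at least 10 counts and DESeq2, 3 with GC content offsets, and 1 to 2 with a library left out. Among latency genes, 3 called lower became 1 at an adjusted p of 0.01 and 1 to 4 with a library left out. Among receptor modulators, 3 called lower became 5 with upper quartile scaling and with at least 10 counts. Among other receptors, 2 called higher became 1 with DESeq2 size factors, library totals only, upper quartile scaling, no filter, at least 10 counts and an adjusted p of 0.01, and 1 to 3 with a library left out, and 2 called lower became 1 with at least 10 counts and an adjusted p of 0.01. The cause of these changes was not tested. In the horse serum order of levels per kilobase, 6 of 10 genes kept their place with the length of the longest transcript. Over all tested genes 5155 were called, 3266 at an adjusted p of 0.01 and 4459 to 7245 with a library left out, the highest without horse serum library 6. No paired analysis was possible because the groups share no library number. Depth limits Tgfbi most, at 29 to 126 counts.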
